A study of Mus musculus with 30 samples.

Results

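The genes described here are 7 genes of MHC class II antigen presentation and of Langerhans cells, chosen by symbol from the 20321 genes of the mouse digit regeneration data. They are H2-Aa, H2-Ab1, H2-Eb1, H2-DMa, Cd74, Ciita and Cd207, and all 7 passed the filter on low counts that left 13793 genes for testing. In that study the distal phalanx of the third hindlimb digit (P3) was amputated at its tip in adult male C57Bl/6 mice, an operation after which the digit tip regrows. RNA of the amputated digit was sequenced in 30 libraries. The first day after amputation was sampled at 0 h, 3 h, 6 h, 12 h and 24 h, and the following weeks at 3 d, 7 d, 14 d and 21 d, with 6 mice at 7 d and 3 at every other time. All mice were amputated, the 0 h mice included, and no uninjured digit or sham group was analysed here. The 0 h libraries serve as the baseline of every comparison.

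MHC class II molecules are pairs of an α and a β chain that carry peptides taken up from outside a cell to its surface, where CD4+ T cells read them. In the C57Bl/6 strain the surface molecule is I-A, made of the products of H2-Aa (α) and H2-Ab1 (β), since the α chain gene of I-E is not functional and the β chain gene H2-Eb1 is transcribed without its partner. Cd74 encodes the invariant chain, which fills the groove during transport, and H2-DMa encodes a chain of the DM molecule, which exchanges the remaining fragment for a peptide. Ciita is the transactivator without which class II genes are not expressed, and it acts on promoters that share an S, X and Y box module. Cd207 encodes langerin, the lectin of the Birbeck granules of Langerhans cells, the dendritic cells resident in the epidermis.

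The class II genes are shown first by their promoters, because the shared module is what ties these genes to Ciita. RefSeq start site windows of 300 bases (250 before and 50 after the start, GRCm38.p6) matched 4 of the 7 genes by symbol. The windows of H2-Aa (chr17:34287774-34288073, minus strand) and H2-Eb1 (chr17:34305617-34305916, plus strand) are printed 5′ to 3′. Capitals mark the Y box letters CTGATTGG in both, the X box core AACNGATG in H2-Eb1 and the X2 box letters TGACGTCA in H2-Aa, each searched on both strands, and no match overlaps another.
H2-Aa: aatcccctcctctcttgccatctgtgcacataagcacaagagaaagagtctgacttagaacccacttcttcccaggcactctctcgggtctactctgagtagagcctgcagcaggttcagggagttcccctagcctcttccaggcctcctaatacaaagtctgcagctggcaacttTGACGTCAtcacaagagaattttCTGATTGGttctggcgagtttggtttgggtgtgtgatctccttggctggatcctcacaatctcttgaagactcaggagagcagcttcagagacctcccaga
H2-Eb1: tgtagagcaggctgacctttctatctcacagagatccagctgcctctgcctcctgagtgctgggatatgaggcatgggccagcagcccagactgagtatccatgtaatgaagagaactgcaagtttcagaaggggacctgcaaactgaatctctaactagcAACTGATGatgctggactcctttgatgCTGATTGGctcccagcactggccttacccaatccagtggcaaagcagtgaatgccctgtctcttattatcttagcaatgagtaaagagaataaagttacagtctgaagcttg

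The Y box letters lie 43 bases upstream of the start in H2-Aa and 54 bases upstream in H2-Eb1, and the X-type box lies further upstream, at 66 and 81 bases. Of the 27025 gene symbols with such a window, 4.7% hold the Y box letters, 2.67% the X box core and 2.03% the X2 letters, which were chosen after the windows had been seen. The windows of Cd207 and of H2-DMa hold none of these exact letters, which says nothing about what binds there. The protein coding genes H2-Aa, H2-Ab1, H2-Eb1 and H2-DMa lie on chromosome 17 of GRCm38, at 34282744 to 34287823, 34257689 to 34269419, 34305867 to 34316674 and 34119541 to 34139101. Ciita lies on chromosome 16 at 10480059 to 10528418 and Cd207 on chromosome 6 at 83671215 to 83677857. H2-Ab1 shares 0.592% of the 31-base stretches of its transcript with H2-Eb1, H2-Eb1 shares 1.84% with H2-Eb2 and H2-Ab1, and H2-Aa, H2-DMa and Cd207 share none with any other gene. Ciita overlaps exons of Dexi on the opposite strand over 1.85% of its exon bases.

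Total expected counts ran from 3167625 to 16277816 per library, and the median was 6103688. The dates that the titles carry fall into 2 periods, July to August (16 libraries) and November to January (14 libraries), with median totals of 5083528 and 9836324. These are called campaigns here, and the labels do not say whether the dates mark surgery, collection or library preparation. All 3 h and 12 h libraries belong to the first and all 21 d libraries to the second, whereas 0 h holds 1 library of the first and 2 of the second. At 7 d, 2 libraries are from July to August and 4 from November to January, 3 of these from the left foot (replicates 3, 4 and 6). All other libraries are from the right foot. The titles also carry animal tags, and 4 tags recur in 9 libraries of different times, so whether every library is a different mouse is not settled by the labels.

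Per unit length, the chains and the invariant chain were the abundant members. The median over the 30 libraries was 60.6 TPM for Cd74, 46.8 TPM for H2-Ab1, 45.9 TPM for H2-Eb1 and 43.6 TPM for H2-Aa. Cd207 had a median of 7.26 TPM, H2-DMa 2.54 TPM and Ciita 0.31 TPM. In counts, the smallest library value was 35 for H2-Aa, 85 for H2-Ab1, 64 for H2-Eb1 and 114 for Cd74, whereas Cd207 ran from 4 to 99 counts, H2-DMa from 0 to 39 and Ciita from 0 to 19. Statements on the last 3 genes are limited by this depth. Keratinocyte genes were far above all of them, with a summed level of 26143 to 77235 TPM over 8 genes, so the class II genes are a minor part of the RNA measured. In a whole tissue, more or fewer cells of a type and more or less RNA per cell cannot be told apart.

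The 3 chain genes changed over the time course, with the lowest means at 21 d and the highest at 3 d or 7 d, 2.55 to 2.85 times those at 21 d. The path was not a single rise from 0 h. H2-Ab1 and H2-Eb1 had means above 0 h at 3 h and below it at 6 h, and H2-Ab1 also below it at 12 h. In edgeR's quasi-likelihood F-test over the 9 time points, with Benjamini-Hochberg adjustment over all genes tested, the adjusted p was 0.000975 for H2-Aa, 0.00199 for H2-Eb1 and 0.0026 for H2-Ab1. Cd74 (adjusted p = 0.102), Cd207 (0.24), Ciita (0.689) and H2-DMa (0.932) did not pass. Thus 3 of 7 members were called, where 9.01% of all genes tested were.

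**Figure D1:**
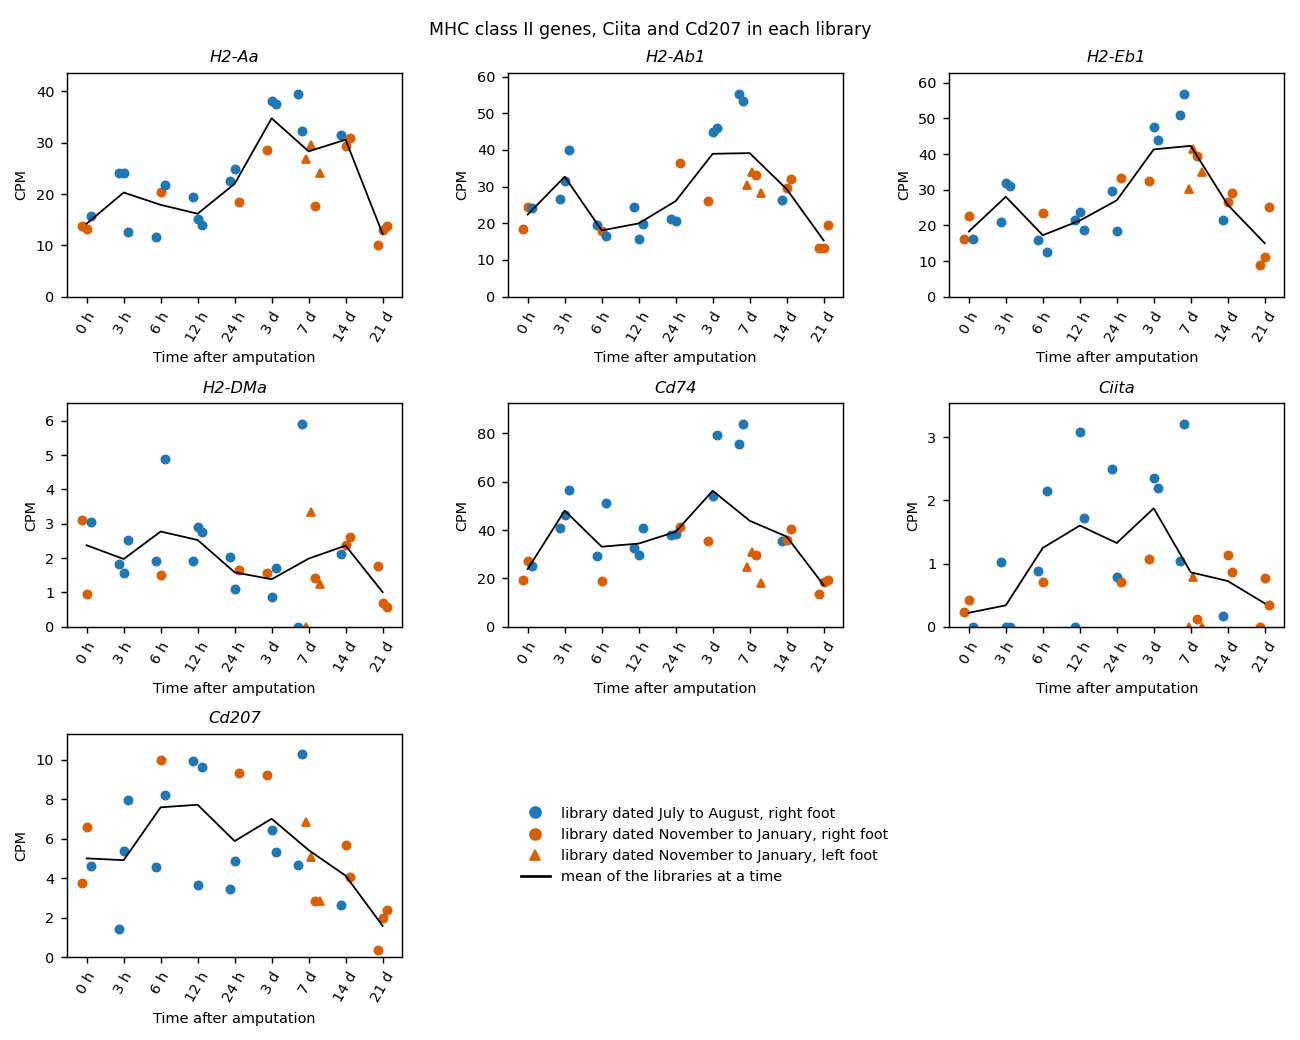
Scaled counts (CPM) of each member in each of the 30 libraries against time after amputation, with circles for the right foot, triangles for the left foot, colour for the campaign and a line through the time point means. The 3 chain genes and Cd74 are highest at 3 d or 7 d and lowest at 21 d. For H2-Aa, H2-Ab1, H2-Eb1 and Cd74 the July to August libraries at 7 d lie above the others. Ciita and H2-DMa stay below 6 CPM.

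H2-Aa, the α chain of I-A, had 13.8, 13.2 and 15.7 CPM (counts scaled by TMM-normalized library sizes) in the 3 libraries at 0 h. At 3 d it had 28.5, 38.2 and 37.6 CPM, at 14 d 31.6, 29.3 and 30.9 CPM, and at 7 d its 6 libraries ran from 17.7 to 39.6 CPM with a median of 28.1. Every library at 24 h, 3 d, 7 d and 14 d was above every 0 h library. At 21 d the values were 10.1, 12.9 and 13.7 CPM, which overlap those at 0 h. Against 0 h, H2-Aa rose by a log2 fold change of 1.29 at 3 d (standard error 0.27, edgeR adjusted p = 0.0196), 0.99 at 7 d (0.24, adjusted p = 0.0235), and it was 2.16-fold higher at 14 d (adjusted p = 0.0286). Each of these calls was lost without any single one of the 3 libraries at 0 h, with log2 fold changes of 0.97 to 1.38 that kept their direction and adjusted p of 0.0552 to 0.15. The call at 3 d was also lost without replicate 2 or 3 at 3 d (adjusted p of at least 0.0782), and that at 14 d without any of its 3 libraries (0.0576 to 0.128).

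H2-Eb1, the β chain of I-E, had 16.1, 22.5 and 16.2 CPM at 0 h. At 3 d it had 32.5, 47.6 and 43.9 CPM, and at 7 d its 6 libraries ran from 30.1 to 57 CPM with a median of 40.3. All libraries at both times were above every 0 h library. At 21 d it had 8.8, 11.1 and 25.1 CPM, so that a single library at 21 d lay above the 0 h values and the other two below. H2-Eb1 rose by a log2 fold change of 1.21 at 7 d (standard error 0.29, edgeR adjusted p = 0.0176). At 3 d the log2 fold change was 1.17 (0.32), which did not pass (adjusted p = 0.109). Without replicate 1 or 3 at 0 h the call at 7 d was lost (adjusted p = 0.143 and 0.115), and without replicate 3 at 21 d, which enters through the shared estimate of spread, the 3 d comparison passed (0.0335).

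H2-Ab1, the β chain of I-A, had 18.5, 24.5 and 24.2 CPM at 0 h, 26, 45 and 45.9 CPM at 3 d and 26.3, 29.5 and 32.2 CPM at 14 d. Its 6 libraries at 7 d ran from 28.3 to 55.4 CPM with a median of 33.7. Every library at 3 h, 3 d, 7 d and 14 d was above every 0 h library. At 21 d, with 13.2, 13.2 and 19.6 CPM, a single library fell within the 0 h range. The log2 fold changes against 0 h were 0.79 at 3 d (standard error 0.28, edgeR adjusted p = 0.41) and 0.80 at 7 d (0.25, adjusted p = 0.0929). H2-Ab1 passed the test over all times, and neither of these comparisons.

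Cd74, the invariant chain, had 19.3, 27.4 and 25 CPM at 0 h and 41, 46.3 and 56.7 CPM as early as 3 h. At 3 d it had 35.3, 54.1 and 79.2 CPM and at 14 d 35.5, 35.8 and 40.5 CPM. Every library at 3 h, 12 h, 24 h, 3 d and 14 d was above every 0 h library. At 7 d the 6 libraries fell apart, with 75.6 and 83.9 CPM in the July to August libraries and 18 to 31.1 CPM in the others. At 21 d it had 13.5, 18.7 and 19.5 CPM. The mean of 48 ± 8.03 CPM (SD, n = 3) at 3 h against 23.9 ± 4.16 CPM (SD, n = 3) at 0 h did not pass (edgeR adjusted p = 0.368). The log2 fold changes were 1.23 at 3 d (0.42, adjusted p = 0.345) and 0.87 at 7 d (0.37, adjusted p = 0.272), and none passed. Over the time course Cd74 passed without the 3 left-foot libraries (adjusted p = 0.00599), without replicate 6 at 7 d alone (0.0475) and with DESeq2's likelihood ratio test (0.0193).

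H2-DMa, which helps load peptides, showed no time point apart from the rest. It had 3.12, 0.959 and 3.04 CPM at 0 h and 1.76, 0.708 and 0.57 CPM at 21 d, its lowest time in the mean, and the highest mean was 2.78 ± 1.84 CPM (SD, n = 3) at 6 h. The libraries of all 8 later times overlapped those at 0 h. At 7 d, 2 of 6 libraries had no count, and the highest had 5.91 CPM. A change of the size seen in the chain genes could not have been told from the spread here, since the standard errors of its log2 fold changes were 0.79 to 0.94.

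Ciita, the transactivator, had 3, 4 and 0 counts at 0 h and 5 counts in all 3 libraries together at 3 h. At 3 d the 3 libraries held 11, 8 and 9 counts, a mean of 1.87 ± 0.69 CPM (SD, n = 3), and all were above the 0 h libraries at 0.24, 0.426 and 0 CPM. The libraries at 6 h and 24 h were also all above those at 0 h, and 7 of the 30 libraries had no count. Taking 3 counts as the limit, a count of 0 allows up to 0.947 CPM in the library with the lowest total, where Ciita had none. In the library with the highest total it would allow up to 0.184 CPM, but Ciita had 12 counts there. These limits are scaled by total counts without TMM, so they are not on the exact scale of the other CPM values. They cover counting error only. The log2 fold change at 3 d was 2.87 with a standard error of 1.48 (edgeR adjusted p = 0.784). At 7 d a single library, replicate 2, held 3.21 CPM, where the median of the 6 was 0.461.

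Cd207, the langerin gene, passed in no comparison and had its lowest mean at 21 d. It had 3.76, 6.61 and 4.64 CPM at 0 h, 9.24, 6.46 and 5.34 CPM at 3 d and 2.65, 5.66 and 4.07 CPM at 14 d. Its highest mean was 7.72 ± 3.55 CPM (SD, n = 3) at 12 h, a time at which single libraries held 9.92, 3.63 and 9.62 CPM. The 6 libraries at 7 d ran from 2.82 to 10.3 CPM with a median of 4.87. At 21 d the values were 0.37, 1.99 and 2.39 CPM, from 4, 31 and 21 counts, below every library at 0 h and at 14 d. The log2 fold changes against 0 h were 0.50 at 3 d (standard error 0.60) and -0.26 at 14 d (0.60), and whether they differ from those of the chain genes was not tested. The log2 fold change at 21 d against 0 h was -1.65 (standard error 0.62), with an unadjusted p of 0.0134 and an edgeR adjusted p of 0.278, so it did not pass. Leaving out a library moved it between -2.03 and -1.19.

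**Figure D2:**
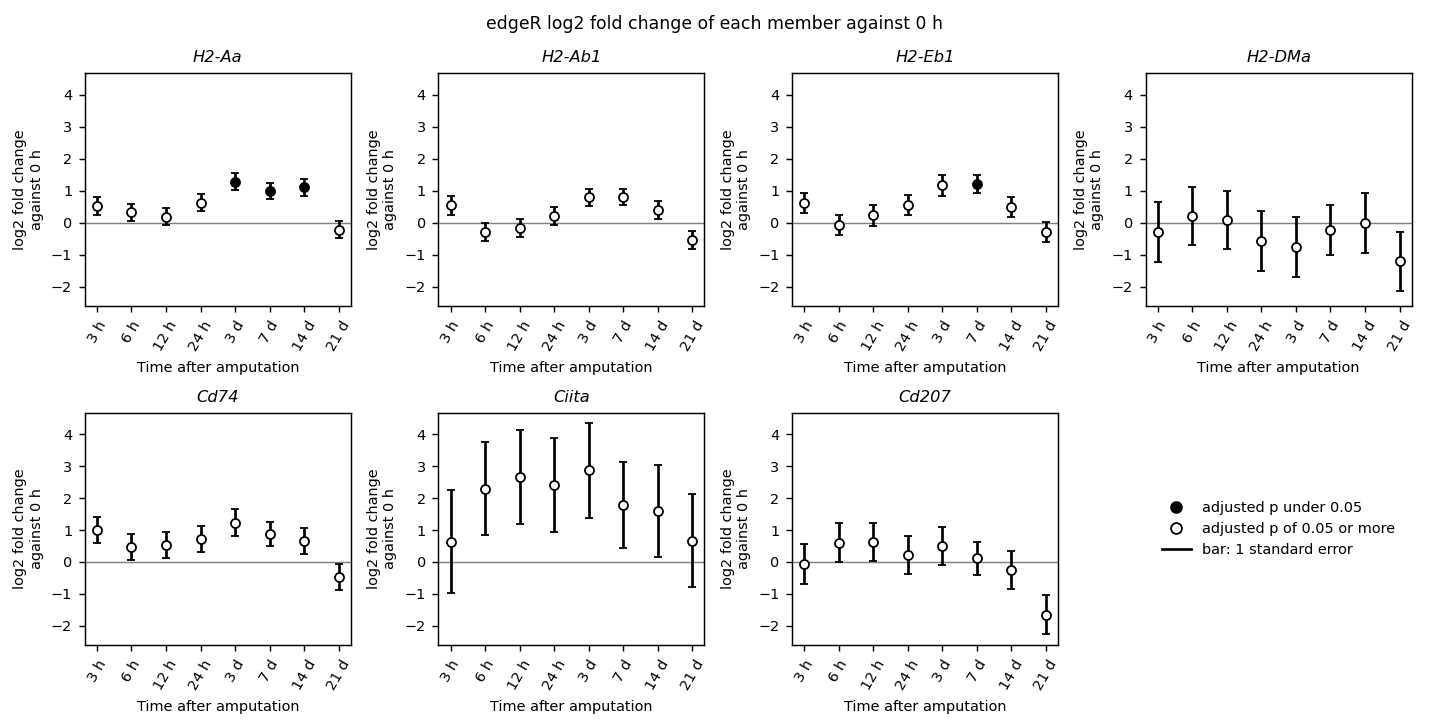
edgeR log2 fold change of each member against 0 h (vertical axis) at the 8 later times, with bars of 1 standard error and filled points where the adjusted p was under 0.05. Filled points are H2-Aa at 3 d, 7 d and 14 d and H2-Eb1 at 7 d, and 6 of 7 members lie below 0 at 21 d without passing.

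Against 0 h, the members called were 1 of 7 at 3 d, where 0.551% of all genes tested were called, 2 of 7 at 7 d (2.34%) and 1 of 7 at 14 d (1.61%), and all of them were higher. At 3 h, 6 h, 12 h, 24 h and 21 d edgeR called no member, and it called 0.254%, 0.189%, 0.167%, 0.493% and 1.94% of all genes. DESeq2's test also called none at these times, and gave Ciita no adjusted p at 3 h, 6 h, 12 h and 21 d. At an unadjusted p under 0.05 there was 1 member of 7 at 3 h (Cd74), 0 at 6 h and 12 h, 1 at 24 h (H2-Aa) and 1 at 21 d (Cd207). Of all genes tested 10.9%, 7.24%, 7.67%, 9.41% and 9.22% had such a p at these times, so a single member is near that share. All libraries lay above all 0 h libraries for 5 members at 3 d, 3 at 7 d and 3 at 14 d, beside 8.16%, 3.92% and 13.6% of all genes. They also did for 2 members at 3 h, 1 at 6 h, 1 at 12 h and 3 at 24 h. The share over all genes was not taken at these earlier times, so no result about the members is read from them. At 21 d all libraries lay below 0 h for 1 member, Cd207, beside 10.2% of all genes. The median log2 fold change of the 7 members was 0.54 at 3 h, 0.56 at 24 h, 1.17 at 3 d, 0.87 at 7 d, 0.50 at 14 d and -0.47 at 21 d, where the median of all genes tested stayed between -0.0148 and 0.0107.

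Ordered by mean CPM, most time points could not be told from their neighbours in the order. For H2-Aa, H2-Ab1, H2-DMa, Cd74 and Ciita all 8 pairs of neighbouring times overlapped in their libraries. For H2-Eb1 the step from 3 d (41.4 CPM) to 3 h (28 CPM) had no overlap, and for Cd207 the step from 14 d (4.13 CPM) to 21 d (1.59 CPM), its 2 lowest times, had none. The highest over the lowest time point mean was 2.85 for H2-Aa, 2.55 for H2-Ab1, 2.82 for H2-Eb1, 3.26 for Cd74 and 4.87 for Cd207. H2-Aa and Cd74 were highest at 3 d and H2-Ab1 and H2-Eb1 at 7 d in CPM. In TPM the highest mean of all 4 was at 3 d, so the order of these neighbouring times depends on the scale.

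Between 14 d and 21 d, a comparison added after the data had been seen, all 7 members had a log2 fold change below 0, from -0.79 for H2-Eb1 to -1.38 for Cd207, and 5 of them had an unadjusted p under 0.05. Single libraries at 21 d moved some of these values by more than 1.5 times. H2-Eb1 had -1.39 without replicate 3 and -0.53 without replicate 1, Ciita -2.08 without replicate 2 and -0.39 without replicate 1, and H2-DMa -1.86 without replicate 1 in place of -1.21. H2-Aa, with -1.32 (standard error 0.27, unadjusted p = 3.96e-05), had an adjusted p of 0.526 in edgeR and 0.0105 with DESeq2's test. By edgeR's adjusted p no gene of 13793 was called in this step, 270 (1.96%) had an unadjusted p under 0.05, and DESeq2 called 5. No member was called by edgeR in any other step either. From 3 h to 6 h H2-Ab1 had a log2 fold change of -0.85 and H2-Eb1 of -0.69 (edgeR adjusted p = 0.267 and 0.437). The genes called were 0.16% from 3 h to 6 h, 0% from 6 h to 12 h and from 12 h to 24 h, 0.0653% from 24 h to 3 d, 0.0145% from 3 d to 7 d, 0.435% from 7 d to 14 d and 0% from 14 d to 21 d. In the 2 steps from 6 h to 24 h, without any call, 914 and 1068 genes had an unadjusted p under 0.05, and DESeq2 called 3 and 21. All libraries of 21 d are from November to January, and fitted within that campaign alone the log2 fold changes ran from -0.91 for H2-Eb1 to -1.61 for Cd207, without a call.

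The differences from 0 h were also taken within each campaign. For H2-Aa the mean log2(CPM + 1) at 7 d exceeded that at 0 h by 1.14 in July to August and by 0.80 in November to January. For H2-Ab1 these differences were 1.14 and 0.54, for H2-Eb1 1.68 and 0.89 and for Cd74 1.64 and 0.14. All 3 chain genes thus had means above those at 0 h within both campaigns, and Cd74 at 7 d was close to its 0 h mean in the later campaign. At 3 d the differences were 1.22 and 1.03 for H2-Aa, 0.88 and 0.28 for H2-Ab1, 1.45 and 0.74 for H2-Eb1 and 1.36 and 0.60 for Cd74. These within-campaign values rest on 1 or 2 libraries at 0 h. An interaction of campaign with time, over the 21 libraries of the 6 times that hold both, had an unadjusted p of 0.00156 for H2-Ab1, 0.00389 for Cd74 and 0.0223 for H2-Eb1. None passed after adjustment in edgeR (adjusted p = 0.0829, 0.126 and 0.27), and 7 d alone was not tested. With campaign as a covariate the counts of called members were the same as without it, at 3 over the time course and 1, 2 and 1 at 3 d, 7 d and 14 d. The members with an unadjusted p under 0.05 in edgeR did change. They went from 1 to 0 at 3 h (Cd74) and at 24 h (H2-Aa), and from 1 to 2 at 14 d. Fitted on July to August alone, Cd74 and both β chains passed over the time course and H2-Aa did not (adjusted p = 0.0528), and on November to January alone H2-Eb1 did not pass (0.131).

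**Figure D3:**
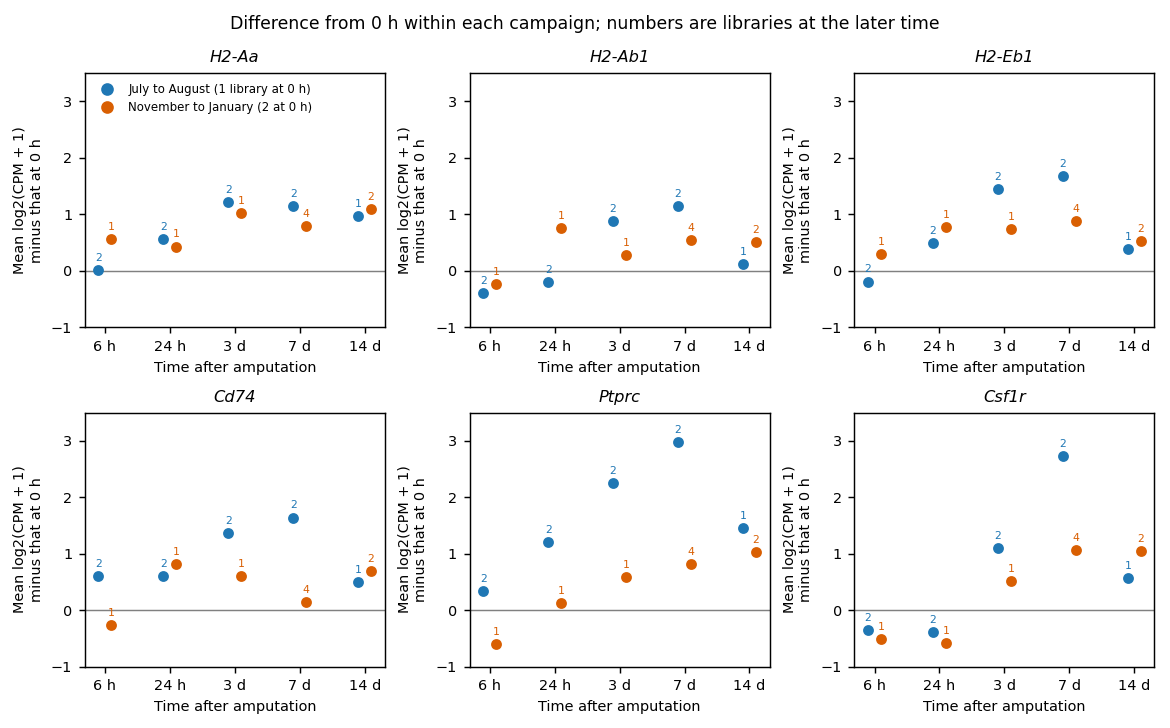
Difference of the mean log2(CPM + 1) from 0 h within each campaign, for the 4 abundant members and for the leukocyte genes Ptprc and Csf1r, with the number of libraries at the later time beside each point. At 7 d the July to August point lies above the November to January point in all 6 panels, by the most for Ptprc (2.97 and 0.81) and Csf1r (2.73 and 1.06).

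Ptprc, the pan-leukocyte marker CD45, and Csf1r, the receptor that Langerhans cells and macrophages need, moved in the same libraries. At 7 d Ptprc had 60.2 to 63.7 CPM in the July to August libraries and 13.9 to 30.8 CPM in the others. Csf1r had 172 to 198 CPM in the former and 37.6 to 61.8 CPM in the latter. The part of leukocyte content in the members' values of these libraries was not tested. The left foot is confined to the later campaign at 7 d, where it can be set against 1 right-foot library only. Cd74 had 18 to 31.1 CPM in the 3 left-foot libraries and 29.5 CPM in that right-foot one, and H2-Ab1 had 28.3 to 34.1 CPM and 33.3 CPM.

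The question of whether langerin and the class II machinery keep a constant ratio was put to the ratio of Cd207 to Cd74 in TPM, which is per unit length. Cd207 stood at 15.2, 16.2 and 19.8% of Cd74 in the libraries at 0 h when ordered by size. It ran from 2.83 to 12% at 3 h, from 6.53 to 13.2% at 14 d and from 2.31 to 9.78% at 21 d, and these 3 times did not overlap 0 h. At 6 h, 12 h, 24 h, 3 d and 7 d the libraries overlapped those at 0 h. On the log2 scale, with 1 TPM added to each gene, the difference from 0 h was -1.16 at 3 h, -0.87 at 14 d and -0.94 at 21 d. Two-sided exact permutation tests gave p = 0.1 for each of these (0.267 after Benjamini-Hochberg adjustment over 8 comparisons), the smallest p that 3 against 3 libraries can give. At 7 d the difference was -0.64 with p = 0.143 (exact permutation, adjusted 0.286), where 0.0238 was the smallest possible. No difference passed, and at 8 comparisons of this size none could have passed at 3 against 3.

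**Figure D4:**
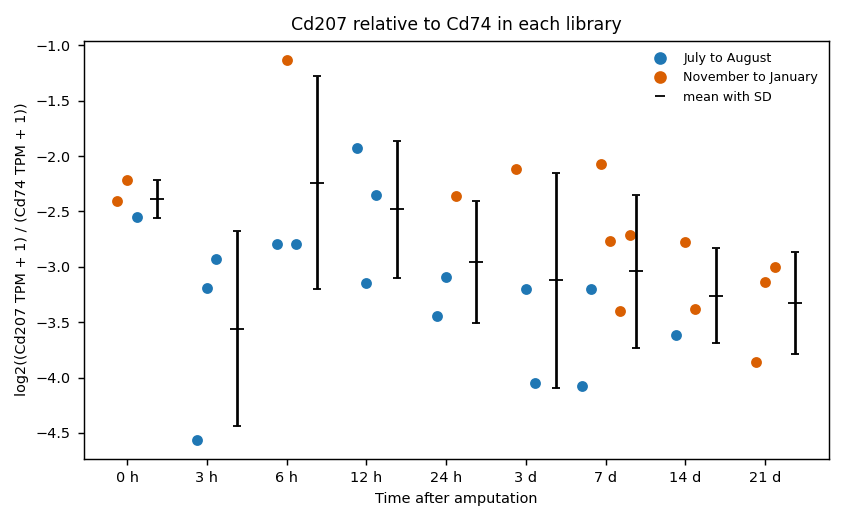
Log2 ratio of Cd207 to Cd74 (each TPM plus 1) in each library against time after amputation, coloured by campaign, with the mean and SD beside the points. The means fall between -3.56 at 3 h and -2.24 at 6 h, and the 3 libraries at 0 h, from -2.55 to -2.22, lie closest together.

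The other genes of class II presentation were read from lists chosen with earlier results of these data known. Of 10 further genes of the pathway, 7 had enough counts and 3 of these changed over time by the F-test (9.01% of all genes did). They are the endosomal proteases Ctss (cathepsin S, which trims the invariant chain; adjusted p = 0.0122) and Lgmn (legumain; 0.000488), and Ifi30 (the thiol reductase GILT; 0.0169). Ctss went from 51.4 CPM at 0 h to 96.5 CPM at 3 d and 94.8 CPM at 14 d in the mean, without passing against 0 h. At 7 d Lgmn rose from a mean of 34.6 to 69.1 CPM (edgeR adjusted p = 0.00557), and Ifi30 rose by a log2 fold change of 0.93 (0.0276). At 21 d the mean levels of Lgmn (52.5 CPM) and Ifi30 (47.6 CPM) were still above those at 0 h (30.4 CPM for Ifi30), unlike the means of the chain genes, without passing. H2-Oa, H2-Ob and H2-Eb2 had no count in 24, 18 and 14 libraries and were not tested.

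Of the genes that feed into class II transcription, 13 of 14 were tested and none passed. They include the RFX and NF-Y subunits that bind the X and Y boxes, Creb1, Irf1 and the interferon γ receptor with its kinases. In edgeR 1 of them, Creb1, had an unadjusted p under 0.05 (adjusted p = 0.197). Irf1 had its highest mean at 3 h (12.5 ± 1.97 CPM, SD, n = 3) and its lowest at 21 d (6.2 ± 2.32 CPM, SD, n = 3). Ifng had 0 counts in all 30 libraries, which over their summed total counts, without TMM scaling, allows a level of up to 0.0139 CPM. For MHC class I, 2 of 10 genes passed over the time course, H2-D1 (adjusted p = 0.0124) and the peptide transporter subunit Tap2 (0.000284). Both had their highest mean at 7 d, and Tap2 rose there by a log2 fold change of 1.04 (edgeR adjusted p = 0.0244). B2m, the shared light chain of class I, did not pass (0.5). At 7 d the median log2 fold change was 0.65 over the 7 further class II genes tested, 0.31 over the transcription genes and 0.56 over the class I genes, beside 0.87 over the members and -0.0105 over all genes tested.

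Cd207 is the member chosen for Langerhans cells, and it was read beside 15 other genes that these cells express or depend on. Which cells of the digit held its RNA was not tested. All 15 were tested, and 6 passed over the time course. The 4 with the lowest p were Tgfb1 (adjusted p = 0.000368), Ptprc (0.00038), Csf1r (0.00105) and the myeloid factor Spi1 (0.00135). Their means were highest at 7 d or 14 d, and at 7 d Csf1r rose by a log2 fold change of 1.99 (edgeR adjusted p = 0.0194), Ptprc by 1.72 (0.0123) and Spi1 by 3.61 (0.0104). These genes are also expressed by macrophages and other leukocytes, and Tgfb1 by many cell types. Epcam, which in the epidermis marks Langerhans cells but also epithelium, did not pass (0.141), nor did Ly75 (0.124), Itgax (0.137) or Id2 (0.4). The median log2 fold change of the 15 genes was 0.92 at 7 d and 0.34 at 21 d. At 21 d, when langerin had its lowest mean, Csf1r (26.1 CPM) and Ptprc (15.9 CPM) had means slightly above their 0 h values of 23.4 and 11.1 CPM. Il34, a ligand of the Csf1r receptor, also had its lowest mean at 21 d (4.14 CPM against 8.83 CPM at 0 h), and Epcam had 54.8 CPM against 62.6 CPM, neither passing. Tgfb1 was higher at 21 d than at 0 h by a log2 fold change of 1.34 (edgeR adjusted p = 0.0213).

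Markers of other cells that carry class II were read beside the members. Most B cell markers were close to absent, with Cd22 as an exception. Pax5 had no count in 29 and Ms4a1 none in 27 of the 30 libraries, Cd79b none in 16, and the summed level of 7 genes was 0.31 to 10 TPM, highest at 0 h. Of 7 B cell genes 1, Cd22, could be tested. It had 1128 counts in all, none of the libraries at 0, and its highest mean, 8.56 ± 4.3 CPM (SD, n = 3), at 0 h, and it did not pass over the time course (edgeR adjusted p = 0.182). Conventional dendritic cell genes other than Fscn1 had a low summed level too, and Clec9a and Batf3 had 0 counts in 21 libraries each. Not all were near 0, since Zbtb46 had 363 counts in all and Xcr1 633, with none in 2 libraries. Xcr1 had means of 3.42 CPM at 0 h and 4.31 CPM at 14 d, without passing over the time course (edgeR adjusted p = 0.69). Of 10 dendritic cell genes tested, 1 passed, Fscn1, which rose by a log2 fold change of 2.86 at 14 d (adjusted p = 6.51e-05) and is also expressed by other cells. The summed level of the 13 genes was 12.3 to 15.4 TPM at 0 h, 19.3 to 29.2 TPM at 3 d and 43.9 to 48.6 TPM at 14 d. Fscn1 carried most of that increase, with a mean of 5.91 CPM at 0 h and 43.7 CPM at 14 d, and without it the sum was 7.91 to 10.9 TPM at 0 h, 4.18 to 16 TPM at 3 d and 8.69 to 11.7 TPM at 14 d. Of 10 macrophage genes 1 passed, Cd163, which fell by 2.74 on the log2 scale at 21 d (adjusted p = 0.00976). The summed macrophage level was 106 to 131 TPM at 0 h, 86.3 to 235 TPM at 3 d, 90.1 to 296 TPM at 7 d and 82.8 to 100 TPM at 21 d, and that of the members 128 to 165, 239 to 429, 184 to 521 and 75.7 to 137 TPM. The ranges of both sums were widest at 7 d, and the part of macrophages in the members' levels was not tested.

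Neutrophil, T cell, keratinocyte and stromal markers were read as well. Of 5 neutrophil genes tested 2 passed in edgeR, S100a8 (adjusted p = 0.00109) and S100a9 (7.72e-06). S100a9 went from a mean of 0.72 CPM at 0 h to 94.8 CPM at 7 d and 28.1 CPM at 21 d. Csf3r (edgeR adjusted p = 0.0505), Retnlg (0.368) and Cxcr2 (0.97) did not pass. The mean of Cxcr2 was 22.8 CPM at 0 h and 18.2 CPM at 7 d. Which cells held the S100a8 and S100a9 RNA was not tested. Of 4 T cell genes tested 1 passed, Thy1 (0.0246), which fibroblasts also express. Cd3e had no count in 26 libraries, whereas Cd3d had 592 counts in all and none in 2 libraries. The mean of Cd3d was highest at 0 h (3.92 CPM) and lowest at 12 h (0.454 CPM), without passing over the time course (edgeR adjusted p = 0.446). None of 8 keratinocyte genes passed in edgeR, and 3 (Krt10, Trp63 and Dsg3) had an unadjusted p under 0.05. The summed keratinocyte level was 59350 to 64790 TPM at 0 h and 26143 to 52493 TPM at 21 d. Of 8 fibroblast and bone genes 6 passed, led by Col1a1, Ibsp, Col1a2 and Col3a1 (adjusted p = 3.79e-10, 4.13e-09, 4.29e-08 and 2.24e-07), and their summed level went from 3050 to 4896 TPM at 0 h to 15945 to 25640 TPM at 21 d. At 21 d, when the chains and Cd207 had their lowest means, such transcripts thus took a larger share of all RNA, and their part in those low values was not tested.

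Across the 30 libraries, H2-Ab1 and H2-Eb1 went together the most closely of all pairs of members. Spearman's rho on log2(CPM + 1) was 0.861 between H2-Ab1 and H2-Eb1, 0.665 between H2-Aa and H2-Ab1 and 0.644 between H2-Aa and H2-Eb1. Cd74 had a rho of 0.478 to 0.642 with the 3 chains, and 0.513 with Ciita. Cd207 had 0.212 to 0.293 with the chains and 0.430 with Cd74, and H2-DMa -0.187 to -0.042 with the chains. These values describe libraries that share times, campaigns and depths.

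Genes outside the members were ranked by rho with the mean of H2-Aa, H2-Ab1, H2-Eb1 and Cd74. Among the 10 highest were Pdzrn4 (0.727), Cytip (0.718), Ifitm3 (0.687), Csf2rb (0.685), Setbp1 (0.677), Itgav (0.670), Wif1 (0.664), Sema4d (0.641) and Bcl2a1b (0.635). Of these, Cytip is a leukocyte adaptor and Csf2rb the common β chain of the GM-CSF, IL-3 and IL-5 receptors. Of 10 markers looked up, Ptprc had 0.586, Csf1r 0.551, Spi1 0.537, Itgax 0.497, S100a9 0.475, Ctss 0.453 and the stromal gene Col1a1 0.221. Epcam had -0.117, Krt5 -0.167 and Krt14 -0.375. With Cd207 the 5 highest were Gstt3 (0.645), Casp1 (0.635), Serpinb3b (0.627), Klf7 (0.625) and Kitl (0.609), and all 5 had their lowest mean at 21 d, as Cd207 did. None of these correlations was tested.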

How the data were processed

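Poly(A) RNA of amputated digit tips was sequenced as single-end reads. The authors aligned reads to Ensembl mouse genes (mm10 per the labels) and ran RSEM 1.2.3, which gave for every gene an expected count and a TPM. The expected counts deposited are not normalized, and the deposited TPM are relative to all genes of a library. The deposited averages per time point were not used.

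Expected counts were rounded and tested in edgeR 4.0.16 (R 4.3.3) with TMM normalization, the default filter on low counts by time point (13793 genes, 99.95% of counts), quasi-likelihood tests, all 30 libraries in a single fit without covariates, and Benjamini-Hochberg adjustment at 0.05. Ratios were compared by exact permutation tests in scipy 1.17.1. DESeq2 1.42.0, limma 3.58.1 on log2(TPM + 1) and other filters were alternatives. The fits were tested on simulated data. The members and gene lists were chosen with earlier results of these data known. Named genes are all members, up to 4 genes of each list with the lowest F-test p among those that passed, markers at or near 0, and the genes ranked highest by Spearman's rho, and some genes that this rule names are not reported here. Other genes named, and comparisons of successive times and single campaigns, were chosen after the values had been seen. No 2 libraries of a time point were alike within sampling noise (chi-square per degree of freedom of 10.3 or more in 39 pairs). The study reports as many mice as libraries. If a recurring tag nevertheless stood for 1 mouse, p-values would measure less than the spread between mice.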

Additional observations from a re-analysis of the deposited data

Results flagged for a closer look

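In the group of 6 libraries at 7 d, 10 measures (the 7 members in CPM, the log2 ratio of Cd207 to Cd74, the total count and the number of genes with a count) were examined for a library far from the others, and chance flags about 1 in 20. For Ciita the highest library, replicate 2 of the July to August campaign with 3.21 CPM, was set apart from the next by a gap that is 0.677 of the whole range, above the critical value of 0.625. In genes detected by at least 1 count, the lowest library, replicate 3 from the left foot with 12191 genes, was set apart by 0.662 of the range, where the others had 13937 to 14830 genes. Without replicate 3 the log2 ratio of Cd207 to Cd74 at 7 d differed from 0 h by -0.84 in place of -0.64.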

How the results depend on the processing

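The number of members called over the time course, 3, was 2 to 4 under all alternatives. At 3 d, 1 member was called, 2 with DESeq2's test, and 0 with limma on TPM (each of 3 settings: a pseudocount of 1, a pseudocount of 0.1, no filter), within either campaign, or at a threshold of 0.01. At 7 d, 2 were called, 4 without the left-foot mice, 1 with limma on TPM (3 settings) or with only the 2 times compared, and 0 in the later campaign or at a threshold of 0.01. At 14 d, 1 was called, and 0 with limma (3 settings), within either campaign or at 0.01. From 14 d to 21 d DESeq2 called 1 in place of 0. With each library left out, the counts ran from 0 to 2 at 3 d, 0 to 2 at 7 d and 0 to 1 at 14 d. These refits hold fewer libraries, and for the other settings the cause was not tested. The ratio of Cd207 to Cd74 changed sign at 6 h (0.16) to -0.24 within the earlier campaign, with 1.19 in the later, at 12 h (-0.08) to 0.64 with H2-Ab1 as denominator and 0.08 within the earlier campaign, and at 3 d (-0.73) to 0.20 in the later one. With libraries left out it ran from -0.40 to 0.44 at 6 h and from -0.36 to 0.25 at 12 h. Sign was followed under the alternatives for some fold changes only. Against 0 h these were H2-Aa at 3 d, 7 d and 14 d, and H2-Ab1 and H2-Eb1 at 3 d and 7 d. Cd74 was followed at 3 h, 3 d and 7 d and Cd207 at 21 d, and all 7 members from 14 d to 21 d. None of these changed sign. Others did, since the members above 0 at 12 h went from 6 to 4 with campaign as a covariate. At 24 h they went from 6 to 4 without replicate 3, and at 7 d from 6 to 7 without the left-foot mice. No paired analysis was possible because the labels carry no replicate numbers and any 2 times share at most 1 animal tag. A fit with the recurring tags as a block was not run. Depth limits Ciita, H2-DMa and Cd207 most.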
